A study of Mus musculus with 4 samples.

Results

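The genes described here are 10 interferon-induced GTPases of the mouse: the 5 guanylate-binding proteins *Gbp2*, *Gbp2b*, *Gbp3*, *Gbp5* and *Gbp7*, and the 5 immunity-related GTPases *Irgm1*, *Irgm2*, *Igtp*, *Tgtp1* and *Iigp1*. They were taken by symbol from the 32285 genes listed for the CD45 sort and the 31053 listed for the T cell sort, and all 10 were present in both. Their levels across immune classes, and their differences between ZsG+ and ZsG- cells in T cell subsets and monocytes, were the values that led to their choice, so these values are given as descriptions. All libraries came from C57BL/6 mice carrying subcutaneous tumors of B16-F10, a mouse melanoma line, engineered to make the fluorescent protein ZsGreen (ZsG) when doxycycline is given. The tumors came from 1 clone chosen for its brightness, the mice drank doxycycline water, and the tumor-infiltrating cells were taken on day 8 after injection. Host cells sorted as positive for the tumor's fluorescence are called ZsG+ and those sorted as negative ZsG-. In the CD45 sort, CD45-positive cells were split into a ZsG- and a ZsG+ library. In the T cell sort CD45-positive cells with a T cell receptor were split likewise, which gave 4 libraries, 1 per gate. By the paper's account the CD45 sort took bright cells as ZsG+, and most ZsG-positive lymphocytes were in its ZsG- library. Whether cells of several mice were pooled is not given in the labels. No library had a replicate, so no p-value is given, and all intervals are 95% intervals that cover counting error only.

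Both families are dynamin-like GTPases that cells make after interferon gamma binds its receptor and, more weakly for some members, after type I interferon. Guanylate-binding proteins coat the vacuoles of intracellular bacteria and parasites and open the way to inflammasomes. Immunity-related GTPases fall into a regulatory group, *Irgm1*, *Irgm2* and *Igtp* (the last also called *Irgm3*), which sits on the cell's own membranes, and an effector group, *Tgtp1* (*Irgb6*) and *Iigp1* (*Irga6*), which loads onto the vacuole of the pathogen. In tumors their transcripts are often read as a sign that interferon has reached a cell.

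The 5 guanylate-binding protein genes lie side by side on the plus strand of chromosome 3 (GRCm38, GENCODE vM21), from *Gbp5* at chr3:142493978-142522344 through *Gbp7* (chr3:142530342-142550149), *Gbp3* (chr3:142560026-142573209) and *Gbp2b* (chr3:142594847-142619179) to *Gbp2* at chr3:142620602-142638008. On chromosome 11, *Irgm1* (chr11:48861968-48871683) and *Tgtp1* (chr11:48985327-48994172) are on the minus strand, and *Igtp* (chr11:58199556-58207591) and *Irgm2* (chr11:58199618-58222782) overlap on the plus strand. Promoters of 300 bases, 250 before and 50 after the start, were available from RefSeq (GRCm38.p6) for 9 of the 10 genes. Each was searched on both strands for GAAA, any 2 bases, GAAA (TTTC, any 2 bases, TTTC on the other strand), the core of the element read by interferon regulatory factors, and for TTCNNNGAA, the palindrome read by STAT dimers. The 9 genes had 10 promoter entries, since *Gbp3* had a second one. The first motif was in 9 of these 10 entries, against 3.44% of 32851 promoters of the same length, and each of the 9 genes had it in 1 entry. The second motif was in 5 of the 10 (*Gbp5*, *Gbp7*, *Tgtp1*, *Igtp*, *Irgm2*), against 8.30%, and the second entry of *Gbp3* held neither. Windows of 30 bases that hold the first motif follow because the members differ in how the motifs are arranged, with the motif letters in capitals, 5′ to 3′ on the strand of the gene.
*Gbp2* (chr3:142620594-142620623, plus, 59 bases before the start): actcttttagTTTCACTTTCactgtcttaa
*Gbp2b* (chr3:142594700-142594729, plus, 137 bases before): gtacttctaaTTTCACTTTCttctttatca
*Gbp3* (chr3:142559989-142560018, plus, 45 bases before): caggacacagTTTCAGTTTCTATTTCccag
*Gbp7* (chr3:142530273-142530302, plus, 53 bases before): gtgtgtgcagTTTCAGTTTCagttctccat
*Gbp5* (chr3:142496759-142496788, plus, 165 bases before): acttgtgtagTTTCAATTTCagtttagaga
*Irgm1* (chr11:48871431-48871460, minus, 30 bases before): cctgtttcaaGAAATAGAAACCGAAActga
*Tgtp1* (chr11:48992309-48992338, minus, 77 bases before): ccatTTCCAGGAAtcGAAACTGAAAcctac
*Igtp* (chr11:58199507-58199536, plus, 34 bases before): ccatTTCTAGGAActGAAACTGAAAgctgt
*Irgm2* (chr11:58214898-58214927, plus, 64 bases before): ccatTTCCAGGAActGAAACTGAAAgctgt
In *Tgtp1*, *Igtp* and *Irgm2* the 2 motifs stood 2 bases apart, and in *Gbp3* and *Irgm1* a pair of matches to the first motif overlapped. A match is a description of the letters and not a measured site.

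The regulatory and effector immunity-related GTPases are told apart by a codon of the nucleotide-binding loop, and the reference coding sequences are shown for that reason, with the codon in capitals.
*Igtp* (codon 97), *Irgm1* (codon 89) and *Irgm2* (codon 77): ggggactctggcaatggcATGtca
*Tgtp1* (codon 69): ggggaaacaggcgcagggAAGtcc
The coding sequence of *Tgtp1* differed from that of its neighbour *Tgtp2* at 4 of 1245 bases, and *Igtp* and *Irgm2* overlap. Whether reads that match both genes of such a pair were counted or left out is not stated in the sources used here. The counts of *Tgtp1*, *Igtp* and *Irgm2* are uncertain to that extent and may be too low.

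After the limits on genes, mitochondrial and CD3 counts, 4699 ZsG- and 4123 ZsG+ cells of the CD45 sort and 659 ZsG- and 780 ZsG+ cells of the T cell sort were kept, with medians of 5769, 9928, 5799 and 6501 UMIs (counted molecules) per cell. Levels are given as CPM, the UMIs of a gene per 1000000 UMIs of the class in that library. Cells were grouped by clustering without the 10 GTPases or the other listed interferon genes, and clusters were named from markers or, where no name could be given, by a leading gene. *Gbp2b* was nevertheless among the leading genes of the *Rsad2*-led myeloid cluster and *Gbp2* among those of the monocyte-like cluster, so the levels of those clusters are descriptions. In the T cell sort the labels contradict each other on which barcode suffix is ZsG+. The label that both samples share puts the ZsG+ library first and was followed (2396 barcodes against 1136), whereas the samples' own library names put it second; with exchanged labels every ZsG+ over ZsG- sign of that sort would turn. The libraries shared 1 to 6 barcodes pairwise. The caller for doublets marked under 0.5% of the cells in both libraries of the CD45 sort, too few to have worked, and doublets were kept. ZsG+ lymphocytes carried macrophage transcripts, whose values stand beside the results they touch.

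Monocyte-like cells held the most GTPase transcript of the clustered classes in the CD45 sort, and NK cell/ILC-like and B cell-like cells held some of the least. The summed level of the 10 genes was 4518 CPM (4458 to 4580, 640 cells) in ZsG+ and 4003 CPM (3830 to 4181, 53 cells) in ZsG- monocyte-like cells. It was 3799 CPM (3730 to 3869) in the 370 *Rsad2*-led myeloid cells, 1982 CPM (1966 to 1999) in the 1788 ZsG+ macrophage-like cells and 1966 CPM in ZsG+ DC2-like cells. The intervals of the macrophage-like and the DC2-like cells overlapped, so these neighbours in the order could not be told apart. Non-classical monocyte-like cells followed at 1649 CPM in the ZsG- and 1610 CPM in the ZsG+ library, ahead of *Ccr7*-positive DC-like cells (1408 CPM) and *Nos2*-led myeloid cells (1346 CPM), which overlapped with each other. DC1-like cells stood lower, at 835 CPM (ZsG+) and 825 CPM (ZsG-). The top of the order turned when classes were set from marker UMIs in place of clusters. Non-classical monocyte-like cells then held 3724 CPM (57 cells) in the ZsG+ and 2277 CPM (87 cells) in the ZsG- library, above monocyte-like cells at 3197 and 1974 CPM.

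Among lymphoid classes of the CD45 sort the order was T cell-like (613 CPM in ZsG+ and 483 CPM in ZsG- cells), NK cell/ILC-like (366 CPM in ZsG- and 364 CPM in ZsG+ cells) and B cell-like (290 CPM, 209 to 392, 39 cells). The pDC-like cells (468 CPM, 437 to 500) overlapped with ZsG- T cell-like cells and not with the other dendritic classes. In the T cell sort, an *Ifit*-led cluster, whose leading genes are targets of type I interferon, was highest at 2724 CPM in ZsG- and 1897 CPM in ZsG+ cells. Of the other T cell classes, Treg-like cells were highest, at 1764 CPM in the ZsG- and 1391 CPM in the ZsG+ library, above Th1-like cells (893 and 860 CPM). With classes set from marker UMIs this gap was small, with Treg-like cells at 1205 and 1071 CPM and Th1-like cells at 1192 and 957 CPM. CD8 T cell-like cells held 658 CPM (626 to 690, 327 cells) in the ZsG- and 429 CPM (407 to 453, 352 cells) in the ZsG+ library. The 2 sorts were deposited from different software versions, and their levels are not compared on 1 scale.

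**Figure D1:**
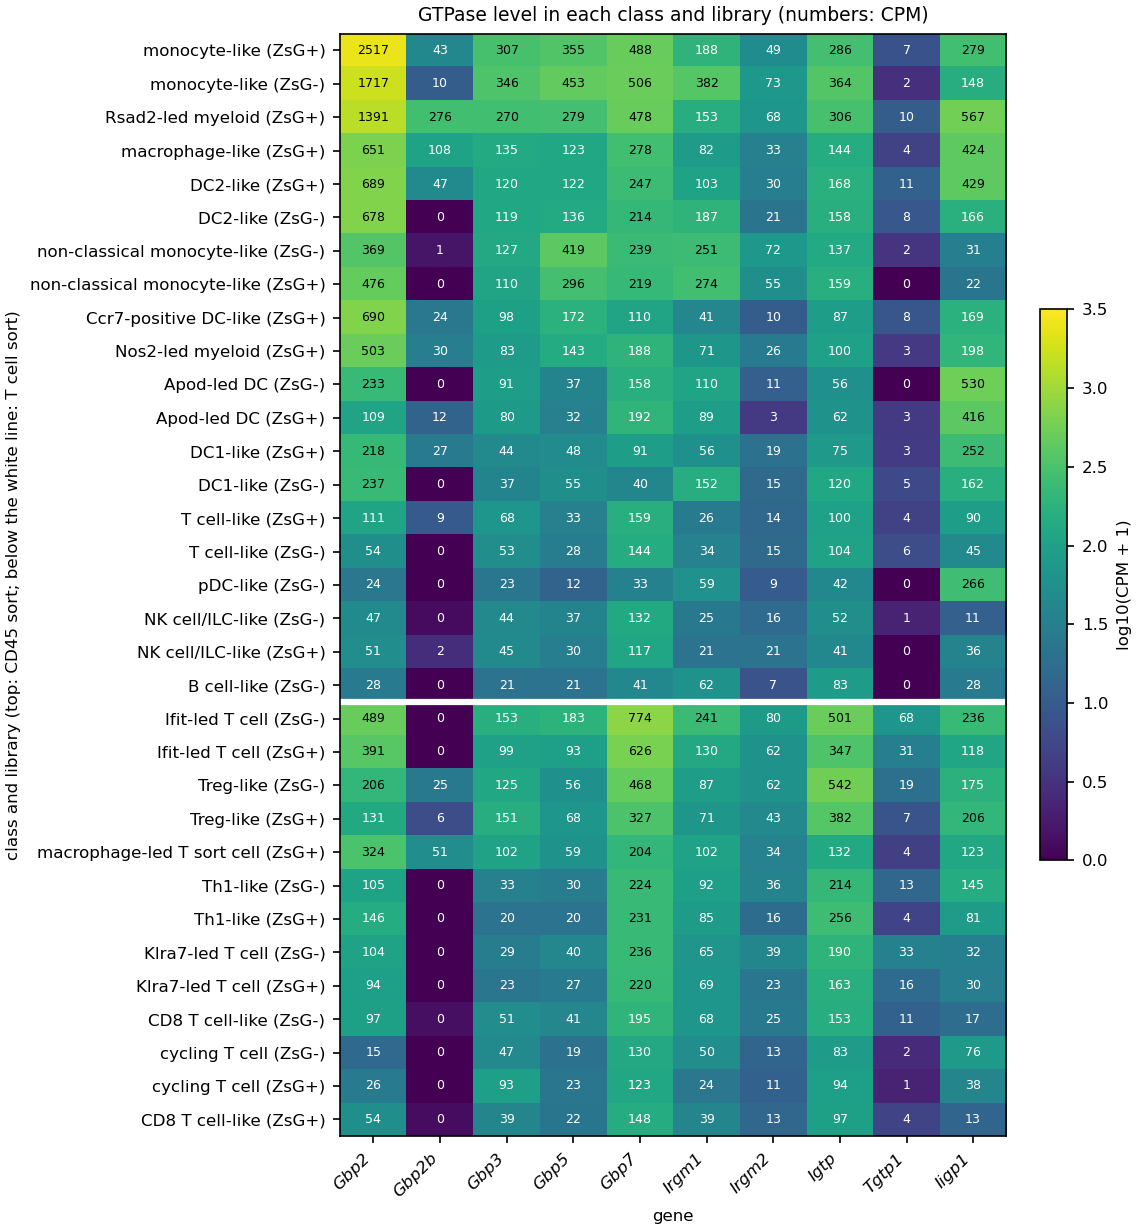
Heat map of the level of each of the 10 GTPases (columns, CPM on a log color scale) in each class and library of at least 20 cells (rows), with a white line between the CD45 sort and the T cell sort. Monocyte-like rows are the brightest for *Gbp2* (2517 CPM in ZsG+ cells), while pDC-like cells stand out from other low rows only for *Iigp1* (266 CPM).

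*Gbp2*, a guanylate-binding protein that reaches pathogen vacuoles and cytosolic bacteria, was highest in monocyte-like cells. Its level was 2517 CPM (2472 to 2563) in ZsG+ and 1717 CPM (1605 to 1836) in ZsG- monocyte-like cells, 1391 CPM in *Rsad2*-led cells, 651 CPM in macrophage-like cells and 46.7 CPM in ZsG- NK cell/ILC-like cells. At least 1 *Gbp2* UMI was found in 98.8% of ZsG+ monocyte-like cells (median depth 6760 UMIs) and in 19.9% of ZsG- NK cell/ILC-like cells (median depth 4583 UMIs). After each cell was thinned to 2000 UMIs the shares were 90.2% and 8.89%. B cell-like cells, with *Gbp2* in 5.13% of 39 cells, and pDC-like cells, with 6.90% of 203, were also low.

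*Gbp2b*, a close neighbour of *Gbp2* formerly called *Gbp1*, had its highest levels in ZsG+ myeloid classes. It stood at 276 CPM (258 to 296) in *Rsad2*-led cells, 108 CPM in macrophage-like cells, 46.6 CPM in ZsG+ DC2-like cells and 42.6 CPM in ZsG+ monocyte-like cells. In ZsG- monocyte-like cells it was 9.89 CPM, from 5 UMIs. No *Gbp2b* UMI was seen in 1528 ZsG- T cell-like cells, which allows a share of up to 0.196% of cells with such a UMI and sets no limit on the cells that express the gene, and 4 UMIs were seen in 2525 ZsG- NK cell/ILC-like cells (0.26 CPM). The share of cells with a *Gbp2b* UMI was 55.1% in *Rsad2*-led, 40.0% in macrophage-like and 0.119% in ZsG- NK cell/ILC-like cells. The remaining guanylate-binding proteins had their highest levels of the CD45 sort in ZsG- monocyte-like cells. *Gbp5*, which promotes assembly of the NLRP3 inflammasome, was 453 CPM in ZsG- monocyte-like, 419 CPM in ZsG- non-classical monocyte-like and 123 CPM in macrophage-like cells. *Gbp7*, a partner of the phagocyte oxidase, went from 506 CPM in ZsG- monocyte-like cells to 132 CPM in ZsG- NK cell/ILC-like and 33.4 CPM in pDC-like cells. *Gbp3* went from 346 CPM in ZsG- monocyte-like cells to 23.0 CPM in pDC-like cells.

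Of the regulatory immunity-related GTPases, *Irgm1* was 382 CPM (330 to 440) in ZsG- and 188 CPM (176 to 201) in ZsG+ monocyte-like cells and 251 CPM in ZsG- non-classical monocyte-like cells. *Igtp* was 364 CPM in ZsG- monocyte-like and 306 CPM in *Rsad2*-led cells of the CD45 sort. In the T cell sort *Igtp* reached 542 CPM (434 to 669) in ZsG- Treg-like and 501 CPM in ZsG- *Ifit*-led cells, against 153 CPM in ZsG- CD8 T cell-like cells. *Irgm2* was 73.2 CPM in ZsG- monocyte-like and 9.32 CPM in pDC-like cells, and 79.5 CPM in ZsG- *Ifit*-led T cells. Each of the 3 regulatory members had UMIs in every class of the T cell sort.

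The effector *Iigp1* followed another order. Its level was 567 CPM (541 to 594) in *Rsad2*-led cells, 530 CPM (459 to 609) in the 38 ZsG- cells of an *Apod*-led dendritic cluster, 429 CPM in ZsG+ DC2-like and 424 CPM in macrophage-like cells. Non-classical monocyte-like cells, high for *Gbp5* and *Irgm1*, had 31.1 CPM (ZsG-) and 21.9 CPM (ZsG+). pDC-like cells, low for the guanylate-binding proteins, had 266 CPM (243 to 291), with a UMI in 54.2% of cells at a median of 8483 UMIs against 4.20% of ZsG- NK cell/ILC-like cells at 4583 UMIs. Thinned to 2000 UMIs these shares were 25.6% and 1.75%. *Tgtp1*, the other effector, was 3.79 CPM in macrophage-like and 11.3 CPM in ZsG+ DC2-like cells. Within the T cell sort the highest level of *Tgtp1* was 67.7 CPM (42.9 to 102, 23 UMIs) in ZsG- *Ifit*-led T cells.

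**Figure D2:**
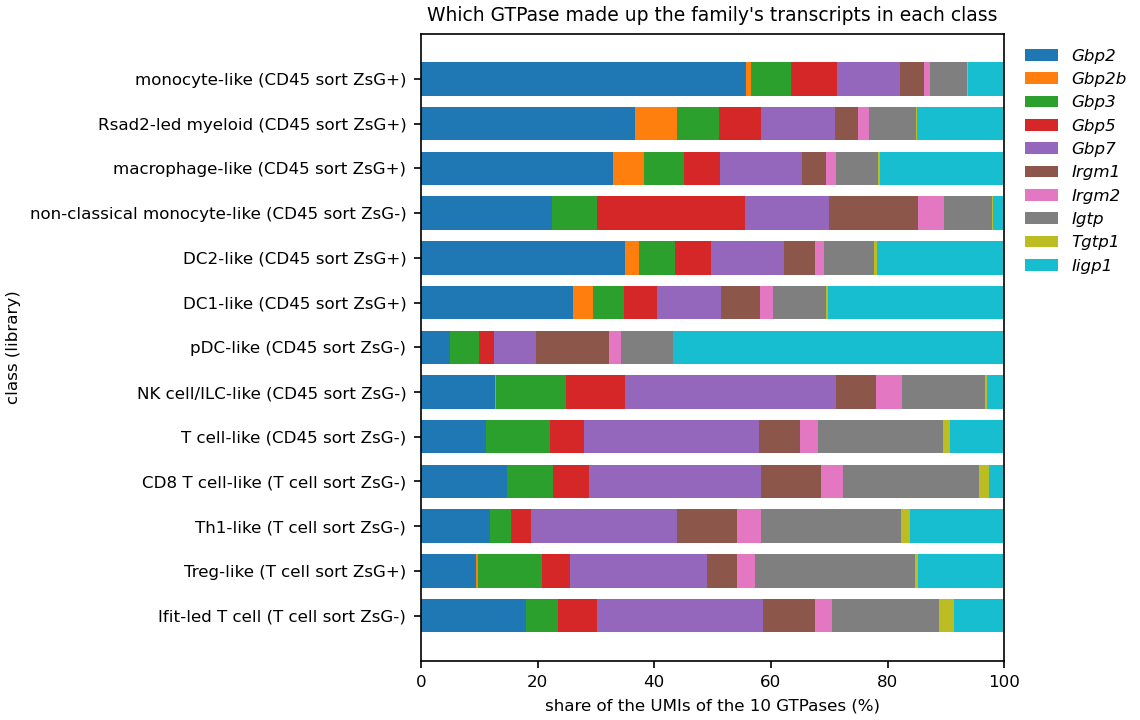
Stacked bars of the share (percent) that each of the 10 GTPases takes of their summed UMIs, for selected pairs of class and library. *Gbp2* takes 55.7% in ZsG+ monocyte-like cells and 12.8% in ZsG- NK cell/ILC-like cells, and *Iigp1* takes 56.9% in pDC-like cells.

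The make-up of the GTPase transcripts therefore differed by class as well as their amount. *Gbp2* supplied 55.7% of the 10 genes' UMIs in ZsG+ monocyte-like cells and 32.9% in macrophage-like cells. *Gbp7* supplied 36.1% in ZsG- NK cell/ILC-like cells, 29.9% in ZsG- T cell-like cells and 34.5% in ZsG+ CD8 T cell-like cells, against 10.8% in ZsG+ monocyte-like cells. *Igtp* supplied 30.7% in ZsG- and 27.4% in ZsG+ Treg-like cells. *Iigp1* supplied 56.9% in pDC-like cells, and 43.2% and 41.7% in the *Apod*-led dendritic cells, whose leading genes include *Tcf4* and *Bcl11a*. *Gbp5* supplied 25.4% in ZsG- non-classical monocyte-like cells and 6.2% in macrophage-like cells. These shares compare classes for 1 gene; UMIs of 3′ tags are not divided by length and do not rank genes against each other.

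Single cells held several members at once where the level was high. At a fixed depth of 2000 UMIs, a ZsG- monocyte-like cell held on average 3.98 of the 10 members, a ZsG+ monocyte-like cell 3.41 and an *Rsad2*-led cell 3.75. The mean was 2.33 in macrophage-like cells, 0.693 in ZsG- NK cell/ILC-like cells and 0.596 in pDC-like cells. It was 3.37 in ZsG- *Ifit*-led cells, 2.18 in ZsG- and 2.23 in ZsG+ Treg-like cells, and 1.09 in ZsG- and 0.817 in ZsG+ CD8 T cell-like cells. At this depth 5 or more members were seen in 36.2% of *Rsad2*-led, 35.8% of ZsG- monocyte-like and 25.5% of ZsG+ monocyte-like cells. The means of the ZsG- and ZsG+ Treg-like cells were close to each other. In the same sort, so were those of ZsG- and ZsG+ *Klra7*-led T cells (1.13 and 1.14) and cycling T cells (0.760 and 0.767).

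**Figure D3:**
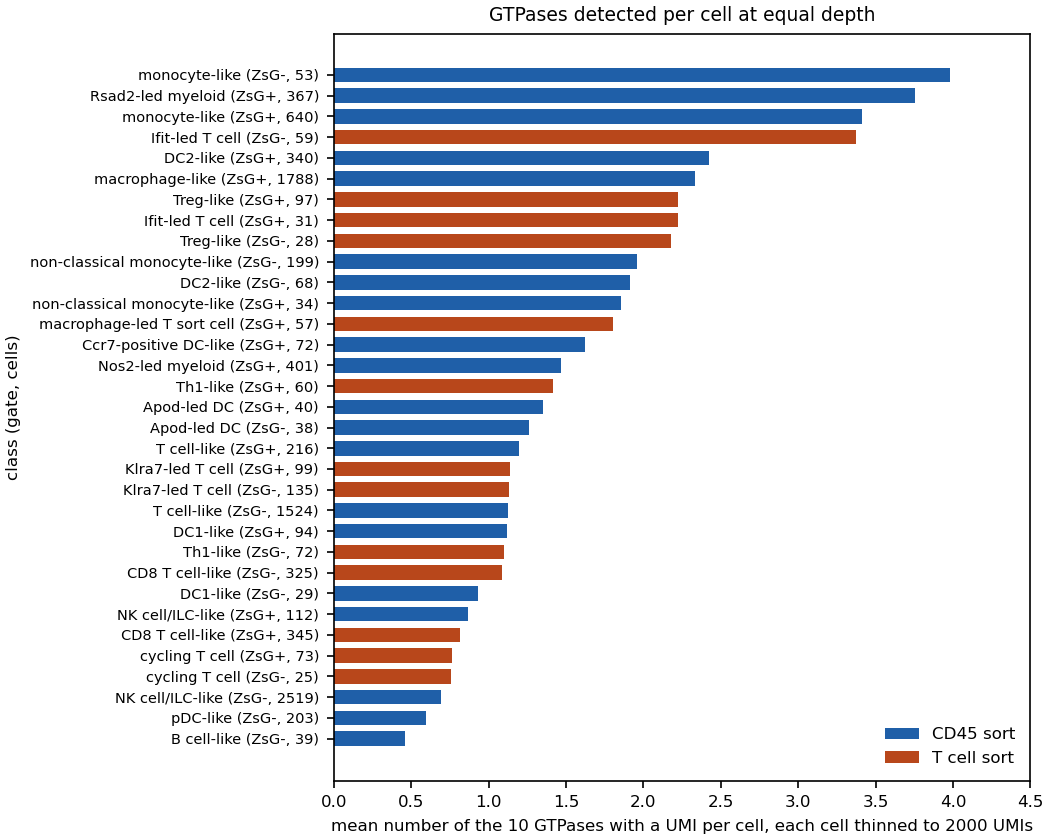
Mean number of the 10 GTPases with at least 1 UMI per cell, after each cell was thinned to 2000 UMIs, by class and library with at least 20 such cells. The mean is 3.98 in ZsG- monocyte-like and 0.596 in pDC-like cells.

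Within the ZsG+ library of the CD45 sort, macrophage-like cells were compared with monocyte-like cells, which also came from the tumors. Monocytes that enter a tumor can give rise to its macrophages. The summed level was lower in macrophage-like cells, with a log2 ratio of -1.19 (-1.21 to -1.17), while the median over all 11496 genes tested was 0.28. With classes set from marker UMIs and no limits on cells the gap was smaller, 2136 against 3176 CPM in place of 1982 against 4518 CPM. The counts that follow use the clustered classes. *Gbp2* was a leading gene of the monocyte-like cluster, and the *Rsad2*-led cells were in neither class. Of the 10 members, 7 were at least 1.5-fold lower and 2 at least 1.5-fold higher, where 11.4% and 33.1% of all genes were. The lower ones included *Gbp2* (651 against 2517 CPM, log2 ratio -1.95), *Gbp5* (123 against 355 CPM, -1.53), *Irgm1* (82.1 against 188 CPM, -1.20) and *Gbp3* (135 against 307 CPM, -1.18). The 2 higher ones were *Gbp2b* (108 against 42.6 CPM, log2 ratio 1.33) and *Iigp1* (424 against 279 CPM, 0.60). The guanylate-binding proteins together had a log2 ratio of -1.52 and the immunity-related GTPases one of -0.24.

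The same monocyte-like cells served as the reference for *Rsad2*-led cells, so the 2 comparisons share them. The log2 ratio was 2.70 (2.47 to 2.93) for *Gbp2b* and 1.02 (0.92 to 1.13) for *Iigp1*, whereas *Gbp2* was lower (1391 against 2517 CPM, -0.86) and *Gbp7* (-0.03, -0.13 to 0.06) and *Igtp* (0.10, -0.02 to 0.22) were within counting error of 0. By the 1.5-fold rule 2 of 10 members were higher and 1 lower, where 17.5% and 7.46% of all genes were, and the median over all genes was 0.12. Across the 15 class and library points of the CD45 sort, log2(CPM + 10) of *Iigp1* had a Pearson correlation of 0.76 with *Gbp2b* and of 0.20 with *Irgm2*, while *Gbp3* and *Igtp* had one of 0.96. These points share 2 libraries and differ in depth, and the correlations are descriptions.

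Within the ZsG- library, pDC-like cells were compared with NK cell/ILC-like cells, since their summed levels were close (468 and 366 CPM) and their composition was not. *Iigp1* was 266 against 10.9 CPM (log2 ratio 4.61, 4.35 to 4.87) and *Irgm1* 58.7 against 25 CPM (1.23, 0.91 to 1.54). Each of the 4 guanylate-binding proteins with enough UMIs was lower, from *Gbp3* (23.0 against 44.0 CPM, -0.93) to *Gbp7* (33.4 against 132 CPM, -1.98). Of 8 members tested, 2 were at least 1.5-fold higher and 5 lower, where 25.8% and 26.6% of all genes were. The 5 guanylate-binding proteins together had a log2 ratio of -1.50 and the 5 immunity-related GTPases one of 1.83. The latter sum rested on *Iigp1* and *Irgm1*, since *Irgm2* was lower in pDC-like cells (9.32 against 16 CPM, -0.77), *Igtp* was 41.7 against 52.3 CPM (-0.33, -0.69 to 0.01) and *Tgtp1* had 0 UMIs against 18.

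In the T cell sort, Treg-like cells, the suppressive CD4 T cells, held more GTPase transcript than CD8 T cell-like cells in both libraries. The log2 ratio of the sum was 1.42 (1.24 to 1.61) in the ZsG- and 1.70 (1.58 to 1.82) in the ZsG+ library. With classes set from marker UMIs the gap was smaller. Treg-like cells then held 1205 (ZsG-) and 1071 CPM (ZsG+), and CD8 T cell-like cells 803 and 532 CPM. The counts of members that follow use the clustered classes, where the *Ifit*-led T cells are apart from the CD8 T cell-like cells. In the ZsG- library 7 of 9 members tested were at least 1.5-fold higher and 0 lower, where 30.7% and 22.6% of all genes were. In the ZsG+ library it was 8 of 8 higher and 0 lower, where 23.2% and 20.5% of all genes were. *Iigp1* showed the widest gap, 175 against 17 CPM in ZsG- cells (log2 ratio 3.36, 2.61 to 4.08) and 206 against 12.8 CPM in ZsG+ cells (4.01, 3.49 to 4.55). *Igtp* was 542 against 153 CPM (1.83) and 382 against 97.3 CPM (1.97). *Irgm1* was closest between the classes in the ZsG- library, 87.3 against 67.7 CPM (0.37, -0.54 to 1.15). *Iigp1* was also higher in Th1-like than in CD8 T cell-like cells, 145 against 17 CPM in the ZsG- library (3.09, 2.45 to 3.73).

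**Figure D4:**
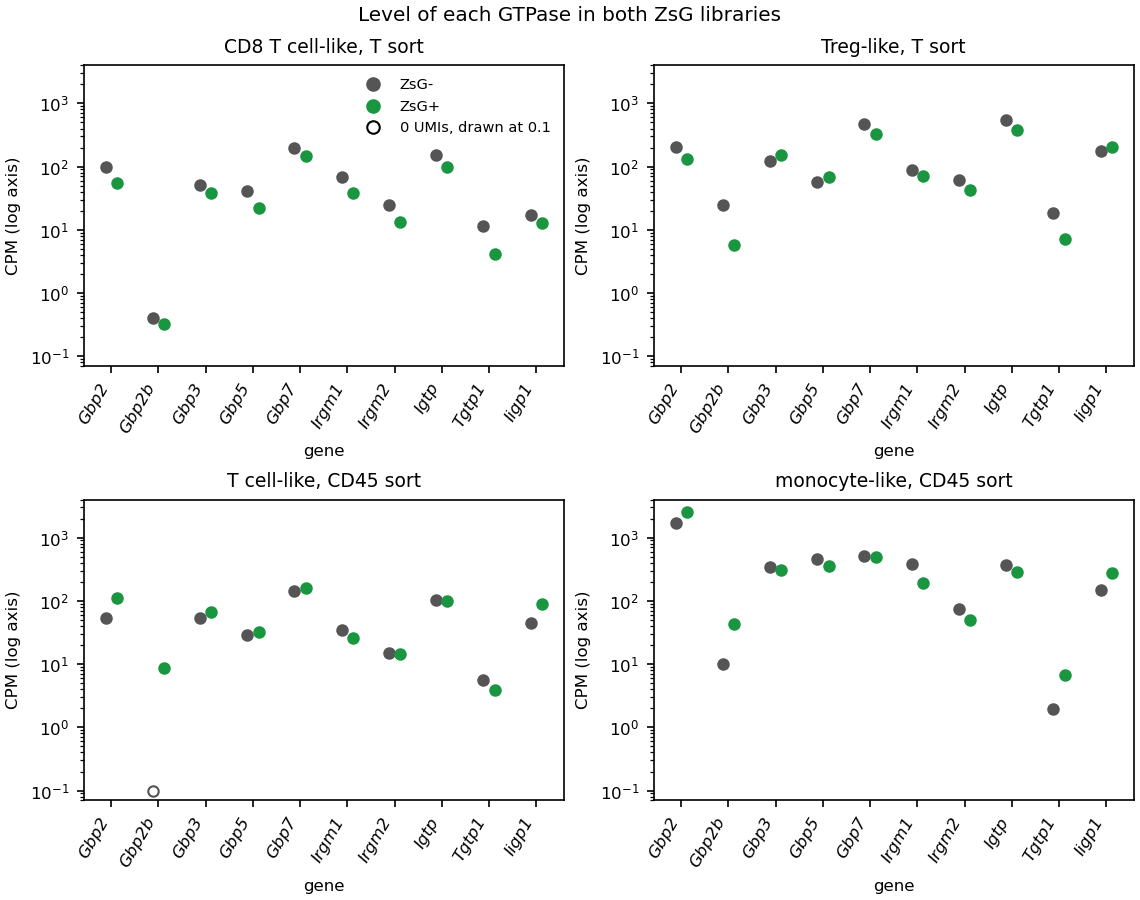
Level of each GTPase (CPM, log axis, points without intervals) in ZsG- and ZsG+ cells of 4 classes, with 0 drawn as an open point at 0.1. In CD8 T cell-like cells the 9 members with at least 20 UMIs sit lower in ZsG+ cells, and in monocyte-like cells *Gbp2* sits higher (2517 against 1717 CPM) and *Irgm1* lower (188 against 382 CPM).

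ZsG+ CD8 T cell-like cells of the T cell sort held less GTPase transcript than ZsG- ones. The sum was 429 against 658 CPM, a log2 ratio of -0.62 (-0.72 to -0.51), and both families were lower (-0.54 for guanylate-binding proteins, -0.72 for immunity-related GTPases). Of 9 members tested, 6 were at least 1.5-fold lower and 0 higher, where 9.45% and 8.55% of all genes were. *Gbp2* was 54.4 against 96.9 CPM (-0.83, -1.12 to -0.54), *Igtp* 97.3 against 153 CPM (-0.65, -0.87 to -0.43) and *Irgm1* 38.7 against 67.7 CPM (-0.81, -1.16 to -0.46). *Gbp5* was 21.8 against 40.5 CPM (-0.90), *Irgm2* 13.1 against 25.1 CPM (-0.94) and *Tgtp1* 4.16 against 11.4 CPM on 13 and 28 UMIs (-1.45, -2.52 to -0.45). *Gbp7* (-0.40), *Gbp3* (-0.40) and *Iigp1* (-0.41, -1.07 to 0.25) were also lower but by less than 1.5-fold. Cells with at least 3 UMIs of the macrophage genes *C1qa*, *C1qb*, *C1qc*, *Apoe* and *Lyz2* made up 6.53% of the ZsG+ and 1.83% of the ZsG- cells. Without these cells, an alternative chosen after seeing the data, the log2 ratio of the sum was -0.67.

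The ratio was also taken within each CD8 subset; differences between subsets were not tested. In CD8-Tex-like A cells, led by *Lag3*, *Pdcd1* and *Havcr2*, the sum was 382 CPM in 90 ZsG+ and 533 CPM in 37 ZsG- cells (log2 ratio -0.48, -0.72 to -0.25), with *Gbp5* at 19.1 against 63.4 CPM (-1.73). There 3 of 8 members tested were at least 1.5-fold lower and 0 higher, where 8.59% and 11.0% of all genes were. In CD8-Tex-like B cells, led by *Ifng*, *Xcl1* and *Ccl3*, it was 167 CPM in 67 ZsG+ and 320 CPM in 31 ZsG- cells (-0.94, -1.28 to -0.59), with *Igtp* at 30.6 against 63.5 CPM (-1.05) and *Irgm1* at 13.3 against 38.1 CPM (-1.52). Here 5 of 6 members were lower and 0 higher, where 12.5% and 11.1% of all genes were. The log2 ratio was 0.04 (-0.24 to 0.31) in CD8-EM-like A, -0.09 (-0.34 to 0.16) in CD8-EM-like B and -0.11 (-0.36 to 0.13) in naive-like cells, and these intervals include 0. The subsets also differed in level and in their share of each gate. Naive-like cells, at 904 CPM (ZsG-) and 835 CPM (ZsG+), numbered 84 in the ZsG- and 37 in the ZsG+ library, whereas CD8-Tex-like A numbered 37 and 90 and CD8-Tex-like B 31 and 67. With all subsets weighted equally the log2 ratio of the CD8 T cell-like cells was -0.16.

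**Figure D5:**
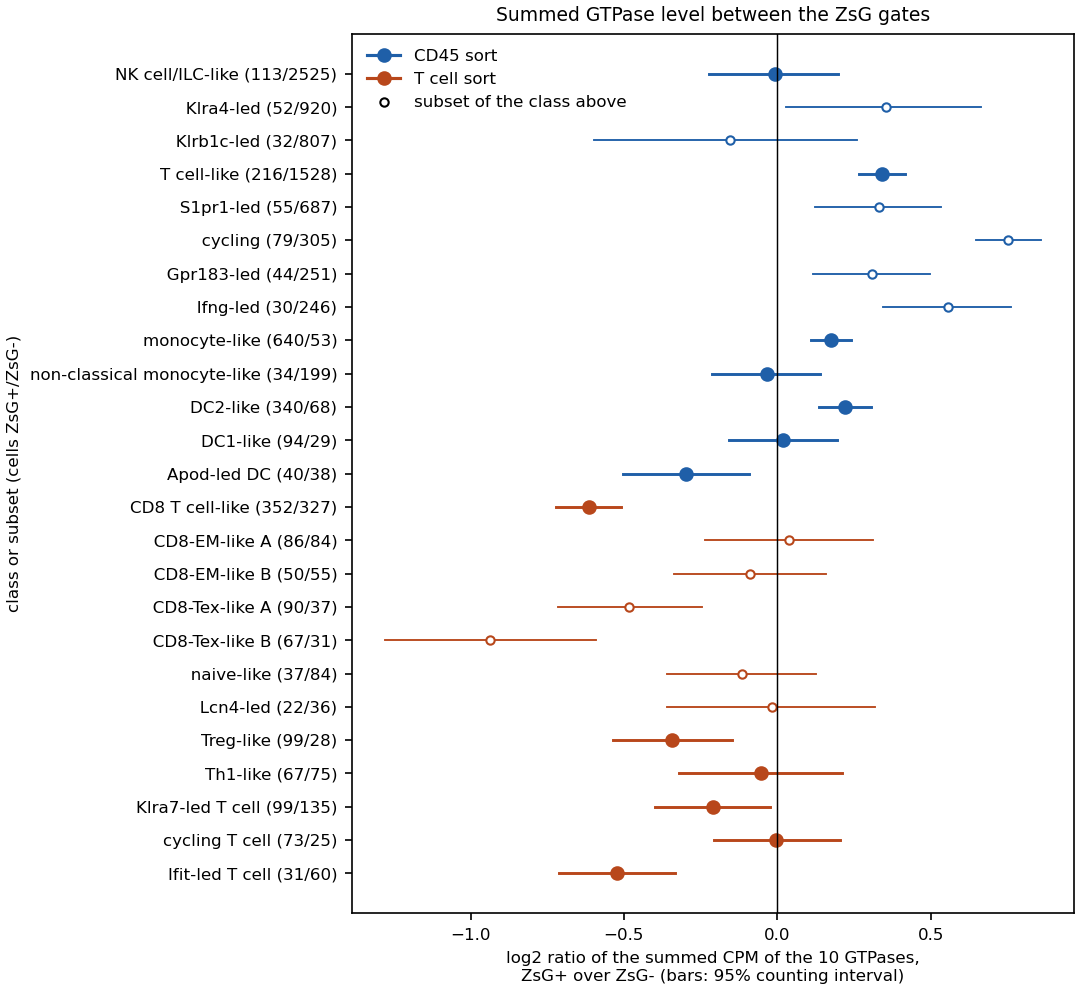
Log2 ratio of the summed CPM of the 10 GTPases, ZsG+ over ZsG-, for each class (filled) and subset (open) with at least 20 cells per gate. Bars are 95% counting intervals, and cell numbers (ZsG+/ZsG-) stand beside the names. In the T cell sort CD8-Tex-like B cells are farthest below 0 (-0.94), and in the CD45 sort cycling T cell-like cells are farthest above it (0.75).

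Treg-like cells went the same way with a smaller gap, 1391 CPM in 99 ZsG+ and 1764 CPM in 28 ZsG- cells (log2 ratio -0.34, -0.54 to -0.15), but the direction turned to 0.17 when each cell was thinned to 2000 UMIs. *Gbp2* was the only member past 1.5-fold, at 131 against 206 CPM (-0.65, -1.24 to -0.03). Thus 1 of 8 members tested was lower and 0 higher, where 19.3% and 16.3% of all genes were, a share below the background. *Igtp* (382 against 542 CPM, -0.51) and *Gbp7* (327 against 468 CPM, -0.52) were lower, and *Gbp3* (0.28) and *Iigp1* (0.24) had intervals on both sides of 0. Macrophage transcripts were present in 4.04% of the ZsG+ and 0 of the 28 ZsG- cells, and without these cells the log2 ratio of the sum was -0.35 (-0.55 to -0.15). In Th1-like cells the sum did not differ beyond counting error (-0.05, -0.32 to 0.21), and only *Iigp1* passed 1.5-fold, at 81.1 against 145 CPM (-0.84, -1.68 to -0.04). That was 1 of 5 members lower and 0 higher, where 12.0% and 9.22% of all genes were. *Ifit*-led cells were lower in the ZsG+ library (1897 against 2724 CPM, -0.52, -0.71 to -0.33), with 5 of 9 members lower and 0 higher, where 11.2% and 12.3% of all genes were. Among them were *Iigp1* (118 against 236 CPM, -1.0), *Gbp5* (93.0 against 183 CPM, -0.97) and *Irgm1* (130 against 241 CPM, -0.89). Without the cells that carried macrophage transcripts (6.45% of the ZsG+ cells) the log2 ratio of the sum was -0.60.

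In the CD45 sort the T cell-like cells went the other way. The sum was 613 CPM in 216 ZsG+ and 483 CPM in 1528 ZsG- cells (log2 ratio 0.34, 0.27 to 0.42). Of 10 members, 3 were at least 1.5-fold higher and 0 lower, where 10.4% and 7.62% of all genes were. These were *Gbp2* (111 against 54.1 CPM, 1.03), *Iigp1* (89.7 against 45 CPM, 1.00) and *Gbp2b*, with 25 UMIs against 0, which is at least 59.2-fold higher than 3 UMIs over the ZsG- cells would give. *Irgm1* was lower (25.6 against 34.2 CPM, -0.42, -0.79 to -0.07) and *Igtp* was level (100 against 104 CPM, -0.05, -0.23 to 0.13).

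Macrophage transcripts also differed between these gates. At least 3 UMIs of the 5 macrophage genes were present in 75% of the ZsG+ and 2.42% of the ZsG- T cell-like cells, and their summed level was 1003 against 106 CPM. In the ZsG+ T cell-like cells these genes stood at 4.39% (*C1qa*) to 6.24% (*Apoe*) of their level in macrophage-like cells, *Gbp2b* at 8.15%, *Gbp2* at 17% and *Iigp1* at 21.2%. In ZsG- T cell-like cells *Gbp2* already stood at 8.30% and *Iigp1* at 10.6% of that level. Against monocyte-like cells the order was another. There the macrophage genes of the ZsG+ T cell-like cells stood at 3.52% (*Lyz2*) to 61.0% (*C1qc*), *Gbp2* at 4.40%, *Gbp2b* at 20.6% and *Iigp1* at 32.2%. In the 54 ZsG+ and 1491 ZsG- cells without such transcripts, *Gbp2* was 60.5 against 52.6 CPM (0.20, -0.37 to 0.72) and *Gbp2b* had 2 UMIs against 0, whereas *Iigp1* was 113 against 44.2 CPM (1.36, 0.94 to 1.75). The sum in those cells had a log2 ratio of 0.52 (0.36 to 0.68). The part of macrophage RNA in the remaining difference was not tested. The size of the ratio depended on the setting, from 0.13 with each cell thinned to 2000 UMIs to 1.47 with classes set from marker UMIs. The marker rule did not leave out cells with macrophage transcripts. With it the ZsG+ class went from 216 cells at 613 CPM to 382 cells at 1365 CPM, while the ZsG- level was 491 CPM. Whether the 1.47 describes T cells alone was not tested.

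NK cell/ILC-like cells showed no difference in the sum (-0.01, -0.22 to 0.20), and 1 of 8 members was higher and 0 lower, where 17.0% and 12.4% of all genes were. That member was *Iigp1*, 35.8 against 10.9 CPM (1.72, 0.95 to 2.41), on 19 and 168 UMIs, which in the 53 ZsG+ and 2509 ZsG- cells without macrophage transcripts was 41.6 against 10.9 CPM (1.93). Of the 19 UMIs, 17 were in the *Klra4*-led subset (108 against 11.2 CPM, 3.28, 2.37 to 4.13). With classes set from marker UMIs the log2 ratio of the sum was 1.13. The ZsG+ level was then 813 CPM in place of 364 CPM, and the ZsG- level was 373 CPM. This rule did not leave out all cells with macrophage transcripts. Macrophage transcripts were present in 53.1% of the 113 ZsG+ and 0.634% of the ZsG- cells. Within subsets the gap in *Iigp1* was uneven. It was 83.6 against 23.4 CPM (1.84, 1.54 to 2.13) in cycling and 44.1 against 12.9 CPM (1.77, 0.96 to 2.53) in *Ifng*-led T cell-like cells. In *S1pr1*-led (0.37, -0.43 to 1.08) and *Gpr183*-led T cell-like cells (0.35, -0.24 to 0.89) the interval included 0, and *Klrb1c*-led NK cell/ILC-like cells had 0 UMIs in 32 ZsG+ and 66 UMIs in 807 ZsG- cells.

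Monocyte-like cells held slightly more GTPase transcript in the ZsG+ library (log2 ratio 0.17, 0.11 to 0.24). The sum of the guanylate-binding proteins was higher (0.29, 0.22 to 0.37) and that of the immunity-related GTPases lower (-0.26, -0.40 to -0.12), but the members of neither family all moved one way. *Gbp5* was lower in ZsG+ cells (355 against 453 CPM, -0.35, -0.55 to -0.15), and *Gbp3* (307 against 346 CPM, -0.18, -0.40 to 0.06) and *Gbp7* (488 against 506 CPM, -0.05, -0.24 to 0.14) were within counting error. By the 1.5-fold rule 3 of 10 members were higher and 2 lower, where 14.1% and 17.6% of all genes were. *Gbp2b* was 42.6 against 9.89 CPM (2.11, 0.86 to 3.75) and *Iigp1* 279 against 148 CPM (0.91, 0.57 to 1.26), and *Tgtp1* had 31 UMIs against 1 (1.74, -0.84 to 7.09). The lower ones were *Irgm1* (188 against 382 CPM, -1.02, -1.25 to -0.79) and *Irgm2* (49.2 against 73.2 CPM, -0.57, -1.08 to -0.03). *Gbp2* was 2517 against 1717 CPM (0.55, 0.45 to 0.65), just inside the limit of 1.5-fold. The ZsG- library had only 53 such cells. At least 3 UMIs of the macrophage genes, which include *Lyz2*, were present in all monocyte-like cells of both libraries. *Lyz2* was itself higher in ZsG+ monocyte-like than in macrophage-like cells. Its level in ZsG+ T cell-like cells was 3.52% of the former and 5.93% of the latter. In this class the rule therefore does not set macrophage RNA apart from the cells' own, and the origin of these transcripts was not tested. The log2 ratio of the sum was 0.02 with each cell thinned to 2000 UMIs and 0.70 with classes set from marker UMIs.

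DC2-like cells, the conventional dendritic cells that present to CD4 T cells, differed between the gates in *Iigp1*, *Gbp2b* and *Irgm1*. *Iigp1* was 429 against 166 CPM (1.37, 1.11 to 1.64), *Gbp2b* had 236 UMIs against 0 (at least 11.8-fold higher than 3 UMIs would give) and *Irgm1* was 103 against 187 CPM (-0.86, -1.13 to -0.58). In the count, 2 of 10 members were higher and 1 lower, where 21% and 14.8% of all genes were, so neither share was above the background. *Gbp2b* entered this count only through the ZsG+ cells. At least 3 UMIs of the macrophage genes were present in 90% of the ZsG+ and 63.2% of the ZsG- DC2-like cells. Whether the cells made these transcripts themselves was not tested, nor was their part in the differences. In DC1-like cells, which cross-present to CD8 T cells, *Irgm1* was 55.6 against 152 CPM (-1.45, -1.94 to -0.96) and *Igtp* 75 against 120 CPM (-0.68, -1.17 to -0.16), while *Gbp7* was 91.2 against 40.0 CPM (1.19, 0.44 to 2.03) and *Iigp1* 252 against 162 CPM (0.64, 0.26 to 1.04). *Gbp2b* had 44 UMIs against 0 there, at least 3.67-fold higher than 3 UMIs would give. The sum was level (0.02, -0.16 to 0.20). At least 3 UMIs of the macrophage genes were present in 88.3% of the ZsG+ and 62.1% of the ZsG- DC1-like cells, under the same limit. Non-classical monocyte-like cells had no member past 1.5-fold among 8 tested (0 higher and 0 lower, where 12.9% and 17.8% of all genes were), and their *Irgm1* was 274 against 251 CPM (0.12, -0.33 to 0.55). *Irgm1* was thus lower in ZsG+ cells of the monocyte-like, DC2-like and DC1-like classes and within counting error in non-classical monocyte-like cells; these comparisons share the same 2 libraries.

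Genes around the GTPases were counted from 6 lists. In CD8 T cell-like cells of the T cell sort, 3 of 10 other interferon GTPases were at least 1.5-fold lower in ZsG+ cells and 0 higher, with a median log2 ratio of -0.52 (median over all genes 0.0038, over the 9 members tested -0.80). *Ifi47* was 185 against 281 CPM (-0.60) and *Gbp4* 78.4 against 127 CPM (-0.69). Over all genes in this comparison 9.45% were lower and 8.55% higher. Of the interferon gamma signal chain, 5 of 9 genes were lower and 2 higher. The receptor chain *Ifngr1* was 346 against 587 CPM (-0.76), whereas *Ifng*, the cytokine itself, was 4432 against 1077 CPM (2.04). Of 10 type I interferon targets, 4 were lower and 0 higher, with *Isg15* at 182 against 244 CPM (-0.42) and *Ifit3* at 70.1 against 106 CPM (-0.59). Of 7 other interferon gamma targets, 1 was lower and 1 higher, near the share over all genes, and the immunoproteasome subunits *Psmb8* (1004 against 971 CPM, 0.05) and *Psmb9* (328 against 299 CPM, 0.13) were level. Of 6 genes of the type I interferon chain, 1 was lower and 0 higher (median -0.23), with *Irf7* at 73.6 against 91.6 CPM (-0.32). *Ifng* is a leading gene of the CD8-Tex-like B subset, whose share differed between the gates.

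In Treg-like cells 5 of 7 type I interferon targets were lower in ZsG+ cells and 0 higher, with a median of -1.03 (all genes -0.058, 19.3% of them lower), for example *Isg15* at 739 against 1178 CPM (-0.67). The ZsG- side had only 28 cells. The lists were not counted in cells thinned to 2000 UMIs, where the log2 ratio of the GTPase sum turned to 0.17. The other interferon GTPases were lower in 3 of 7 cases and higher in 0. Against CD8 T cell-like cells of the same ZsG+ library, 10 of 10 type I targets and 7 of 10 other interferon GTPases were higher in Treg-like cells and 0 lower, where 23.2% of all genes were higher. There *Ifng* was 93.6 against 4432 CPM, while *Ifngr1* was 913 against 346 CPM (1.4). The *Ifit*-led T cells, with type I targets among their leading genes, formed a separate cluster and were not in the CD8 T cell-like class. With them added, the summed GTPase level of that class was 501 CPM in place of 429 CPM in the ZsG+ library. The list counts against Treg-like cells were not repeated with them, so the counts hold for the clustered classes only.

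The lists were also counted in monocyte-like cells, where 17.6% of all genes were lower and 14.1% higher in ZsG+ cells. Of 8 genes of the interferon gamma chain tested, 4 were lower in ZsG+ cells and 0 higher (median -0.56, all genes -0.077), with *Ifngr1* at 123 against 226 CPM (-0.88) and *Irf1* at 834 against 1274 CPM (-0.61). Of 12 other interferon GTPases, 5 were higher and 0 lower. *Ifi47* was 668 against 890 CPM (-0.41), and *Gbp4* 197 against 144 CPM (0.45). The chemokine *Cxcl10* was 5372 against 9914 CPM (-0.88) and *Isg15* 2538 against 1998 CPM (0.35).

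Macrophage-like cells were set against monocyte-like cells over the same lists, in a comparison where 11.4% of all genes were lower and 33.1% higher. Both were the clustered classes, and the *Rsad2*-led cells, with type I interferon targets among their leading genes, were in neither. Of 10 type I interferon targets, 9 were lower and 0 higher (median -1.18, all genes 0.28), with *Isg15* at 1051 against 2538 CPM (-1.27). The interferon gamma chain had 4 of 9 genes lower and 1 higher, the other interferon gamma targets 3 of 9 lower and 0 higher, and the type I interferon chain 2 of 6 lower and 0 higher. Of 14 other interferon GTPases, 7 were lower and 3 higher. *Ifi47* was 216 against 668 CPM (-1.63), whereas *Gm4951*, a less studied immunity-related GTPase named here after its values were seen, was 46.3 against 17.1 CPM (1.44). Of 12 genes that work with the GTPases in autophagy and inflammasomes, 5 were lower and 0 higher. *Il1b*, the cytokine that inflammasomes release, was 2191 against 6749 CPM (-1.62), and *Gabarapl2*, an Atg8 protein, 75.9 against 86.6 CPM (-0.19). In CD8 T cell-like cells the same list had 2 of 11 genes higher and 0 lower in ZsG+ cells, and *Gabarapl2* was 177 against 197 CPM (-0.15).

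Apart from the 10 members, the 5 genes whose level followed the summed GTPases most closely over the 15 points of the CD45 sort, among 9746 genes, were *Oas3* (Pearson correlation 0.99 on log2(CPM + 10)), *Ifih1* (0.99), *Capza2* (0.98), *Rnf213* (0.97) and *Calhm6* (0.97). *Oas3* and *Ifih1* are sensors of double-stranded RNA. Over the 10 points of the T cell sort, among 9184 genes, they were *Zbp1* (0.95), *Ifi209* (0.94), *Samhd1* (0.94), *Phf11a* (0.94) and *Isg15* (0.93). The members themselves followed their sum unequally in the CD45 sort, from 0.97 (*Gbp2*) and 0.95 (*Gbp3*) to 0.62 (*Iigp1*) and 0.57 (*Tgtp1*). Over the T cell sort *Gbp7* (0.94) and *Irgm1* (0.91) were closest and *Gbp2b* (0.25) farthest. The points share libraries within each sort and differ in depth.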

How the data were processed

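UMI counts, 1 value per gene and barcode, are what the authors deposited. The authors aligned reads to mm10, called cells and combined the libraries of each sort with Cell Ranger (the methods name version 6.1.2, and the headers name 7.0.0 for the CD45 sort and 6.1.2 for the T cell sort). The sources used here do not state whether introns were counted. Cells were kept with 1000 to 6000 genes and under 10% mitochondrial UMIs (CD45 sort), or 50 to 6000 genes, under 15% mitochondrial and at least 0.055% CD3 UMIs (T cell sort). Clusters came from Seurat 5.3.0 (R 4.3.3) on log-normalized values of genes in at least 3 cells (20 components, resolution 1.5 or 1.2, 1972 of 2000 variable genes after leaving out interferon genes). Doublets were scored with Scrublet in scanpy 1.11.5 on 1 thread; the number it called changed with the number of threads, so only the side of 0.5% is given.

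UMIs were summed per class and library (pandas 2.3.3, numpy 2.4.6, Python 3.11.15; scipy 1.17.1 for intervals, matplotlib 3.10.9 for plots). Sums have exact Poisson, shares Clopper-Pearson and ratios exact conditional 95% intervals, for counting error only; upper limits for a count of 0 use 3 counts. A gene entered a count of members or list genes with at least 20 UMIs over both sides and was called at 1.5-fold. Shares and members per cell were also taken after thinning each cell to 2000 UMIs. Likeness used classes of at least 50 cells and genes of at least 10 CPM. Named were the 10 members, the 2 or 3 genes with most UMIs of each list (a few others that the text names, such as *Ifng*, *Psmb9*, *Gm4951* and *Il1b*, fall under that rule in 1 sort or were chosen after their values were seen) and the 5 genes most alike. The values of 1 list gene are not reported here. The members and lists were chosen with earlier results of these data known.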

Additional observations from a re-analysis of the deposited data

Results flagged for a closer look

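The summed level of the 10 GTPases differed between the ZsG gates in opposite directions in the 2 sorts: the log2 ratio of ZsG+ over ZsG- was 0.34 (0.27 to 0.42) for the T cell-like class (CD45 sort) and -0.62 (-0.72 to -0.51) in CD8 T cell-like cells of the T cell sort. Each sort had 1 library per gate, and the difference between the 2 ratios was not tested. The gates also differed, since by the paper's account most ZsG-positive lymphocytes of the CD45 sort were in its ZsG- library. Both cell sets differ in make-up, since the first holds all T cell-like cells, and macrophage transcripts were present in 75% of the ZsG+ cells of the first and 6.53% of the second. The labels of the T cell sort contradict each other, and exchanged labels would turn the second sign.

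Barcodes of the T cell sort that failed the limits on genes, mitochondrial or CD3 counts also carried GTPase transcripts. The summed level was 764 CPM in 477 ZsG- barcodes and 795 CPM in 1616 ZsG+ barcodes, above the levels of 0.587 and 0.207 CPM that 3 UMIs would give. The kept cells of these libraries held 878 and 683 CPM. In the left-out barcodes the 5 macrophage genes *C1qa*, *C1qb*, *C1qc*, *Apoe* and *Lyz2* summed to 7695 CPM (ZsG-) and 5275 CPM (ZsG+).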

How the results depend on the processing

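Across the alternatives, 51 log2 ratios of the summed level stayed within the counting interval of the reported value, 21 moved further and 1, whose reported interval was clear of 0, changed sign. That was in Treg-like cells, from -0.34 to 0.17 when each cell was thinned to 2000 UMIs. Among the 51 and the 21, the sign also turned in 10 whose reported interval included 0, all in NK cell/ILC-like, non-classical monocyte-like and Th1-like cells. Thinning also gave 0.26 for NK cell/ILC-like (from -0.01), 0.13 for T cell-like (from 0.34), 0.023 for monocyte-like (from 0.17), -0.49 for CD8 T cell-like (from -0.62) and 0.37 for Th1-like cells (from -0.05). Averaging each cell's own CPM gave 0.22 for NK cell/ILC-like, 0.21 for T cell-like, 0.070 for monocyte-like, -0.36 for CD8 T cell-like and -0.10 for Treg-like cells. Classes set from marker UMIs in place of clusters gave 1.13 for NK cell/ILC-like, 1.47 for T cell-like, 0.70 for monocyte-like and 0.71 for non-classical monocyte-like cells (from -0.03). For NK cell/ILC-like and T cell-like cells the marker rule did not leave out all cells with macrophage transcripts. A mitochondrial limit of 5% gave 0.43 for T cell-like cells. Totals without mitochondrial and ribosomal protein genes gave 0.10 for DC2-like cells (from 0.22) and -1.15 for macrophage-like over monocyte-like cells (from -1.19). Subsets weighted equally gave -0.16 for CD8 T cell-like cells, and clusters made with the interferon genes gave -0.30 for *Ifit*-led cells (from -0.52). Of those chosen after seeing the data, leaving out cells with macrophage transcripts gave 0.52 for T cell-like cells and adding *Ifit*-led cells gave -0.86 for CD8 T cell-like cells. The cause of these moves was not tested. With no limits on cells and classes from marker UMIs, levels were 3176 CPM (monocyte-like ZsG+), 2136 CPM (macrophage-like ZsG+), 2271 CPM (non-classical monocyte-like ZsG-), 797 and 574 CPM (CD8 T cell-like ZsG- and ZsG+) and 1220 and 1080 CPM (Treg-like ZsG- and ZsG+). A fold of 2 left 1 lower member in CD8 T cell-like, 0 in Treg-like, 0 in Th1-like, 1 in *Ifit*-led, 1 in monocyte-like and 0 in DC2-like cells, and a minimum of 100 UMIs left 0 in Th1-like and 1 in *Ifit*-led cells. The share of all genes past these stricter limits was not taken, so these counts cannot be set against a background. DC2-like and *Ifit*-led cells have no class from marker UMIs, which was not run for them. No paired analysis was possible because each gate of each sort is 1 library, and no replicate could be left out.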
